A study of Homo sapiens with 5 samples.

Results

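The genes described here are 40 human genes of S phase and DNA replication. They were chosen by symbol for their known role, with earlier results of these data known. They were followed in SW480 cells, an established human colorectal cancer line, grown as xenografts in zebrafish larvae and sorted as single cells at 1 and 4 days post injection (dpi). Of the 21199 human genes listed in any plate, 15022 passed the gene filter, and 39 of the 40 replication genes were among them. The exception was TYMS, thymidylate synthase, which was not listed in library 7 and had 6, 6, 9 and 5 UMIs in libraries 6, 8, 10 and 11.

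All 5 samples were GFP-transfected SW480 cells taken from tumors, and no other cell line or treatment was compared. Each sample was a plate of 384 wells, with libraries 6, 7 and 8 from 1 dpi and libraries 10 and 11 from 4 dpi. The tumors of many larvae were pooled before sorting, and no source says whether plates with the same time point held separate pools, so the p-values below measure the spread between plates, which may be technical. Cells with more than 2000 genes and under 25% mitochondrial UMIs were kept, which left 228, 142 and 163 cells at 1 dpi and 132 and 161 at 4 dpi, 826 in all. Their UMIs (unique molecular identifiers, which count RNA molecules) summed to between 3789627 and 7503652 per plate, with medians of 18823 to 36197 per cell. Libraries 6, 7 and 10 were read on 1 flow cell and libraries 8 and 11 on another. Markers of colorectal epithelium, 7 genes that include EPCAM and KRT8, took 4680 to 5741 CPM (counts per-million, the UMIs of a gene or list as a share of all human UMIs of the plate) in every plate. The 5 leukocyte markers together took 4.74 to 8.36 CPM, with CD3E at 0 in every plate. The 3 endothelial markers took 1.25 to 2.00 with CDH5 at 0, and the 3 erythroid markers took 3.16 to 9.82. The 5 fibroblast markers took 23.0 to 27.2 at 1 dpi and 44.1 and 32.9 at 4 dpi, with COL1A2 at 0. Reads were aligned to the human transcriptome, so these markers cannot tell whether cells of the zebrafish host were on the plates. A bulk sum over a plate cannot tell fewer cells in S phase from less RNA in each, so shares of cells are given beside the levels.

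Replication starts at origins that are licensed in G1, when CDC6 and CDT1 load the ring of MCM2 to MCM7 onto DNA. CDC45 and the GINS proteins then turn the MCM ring into a moving helicase, with MCM10 assisting, while cyclin E and the E2F factors drive entry into S phase and the transcription of many of these genes. Primase and DNA polymerases copy the strands, the PCNA clamp and its RFC loader hold the polymerase on DNA, and FEN1 and LIG1 finish the lagging strand. Ribonucleotide reductase, thymidine kinase and dUTPase supply the nucleotides, and CHAF1A, CHAF1B and SLBP serve the packaging of new DNA into histones. G2 and mitosis genes, such as cyclin B and TOP2A, peak later in the cycle and served as the comparison.

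At 4 dpi 6 of the 39 replication genes were higher than at 1 dpi and 2 were lower, and 31 were not called. These were called by edgeR's quasi-likelihood test on UMIs summed per plate, at a Benjamini-Hochberg adjusted p under 0.05 over all 12646 genes tested. Of all genes tested 13.4% were called higher and 14.2% were called lower, so the share of replication genes called in either direction lay near or below that of all genes. The median log2 change of the 39 was 0.14, beside 0.00 over all genes tested. Summed over all members, replication UMIs took 2501, 2229 and 2144 CPM at 1 dpi (libraries 6, 7 and 8), then 2676 and 2442 at 4 dpi (libraries 10 and 11). The sum of library 11 lay below that of library 6, and the time points overlapped. At 3 plates against 2, an exact permutation test of such a sum cannot give a two-sided p below 0.10, so none was run.

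**Figure D1:**
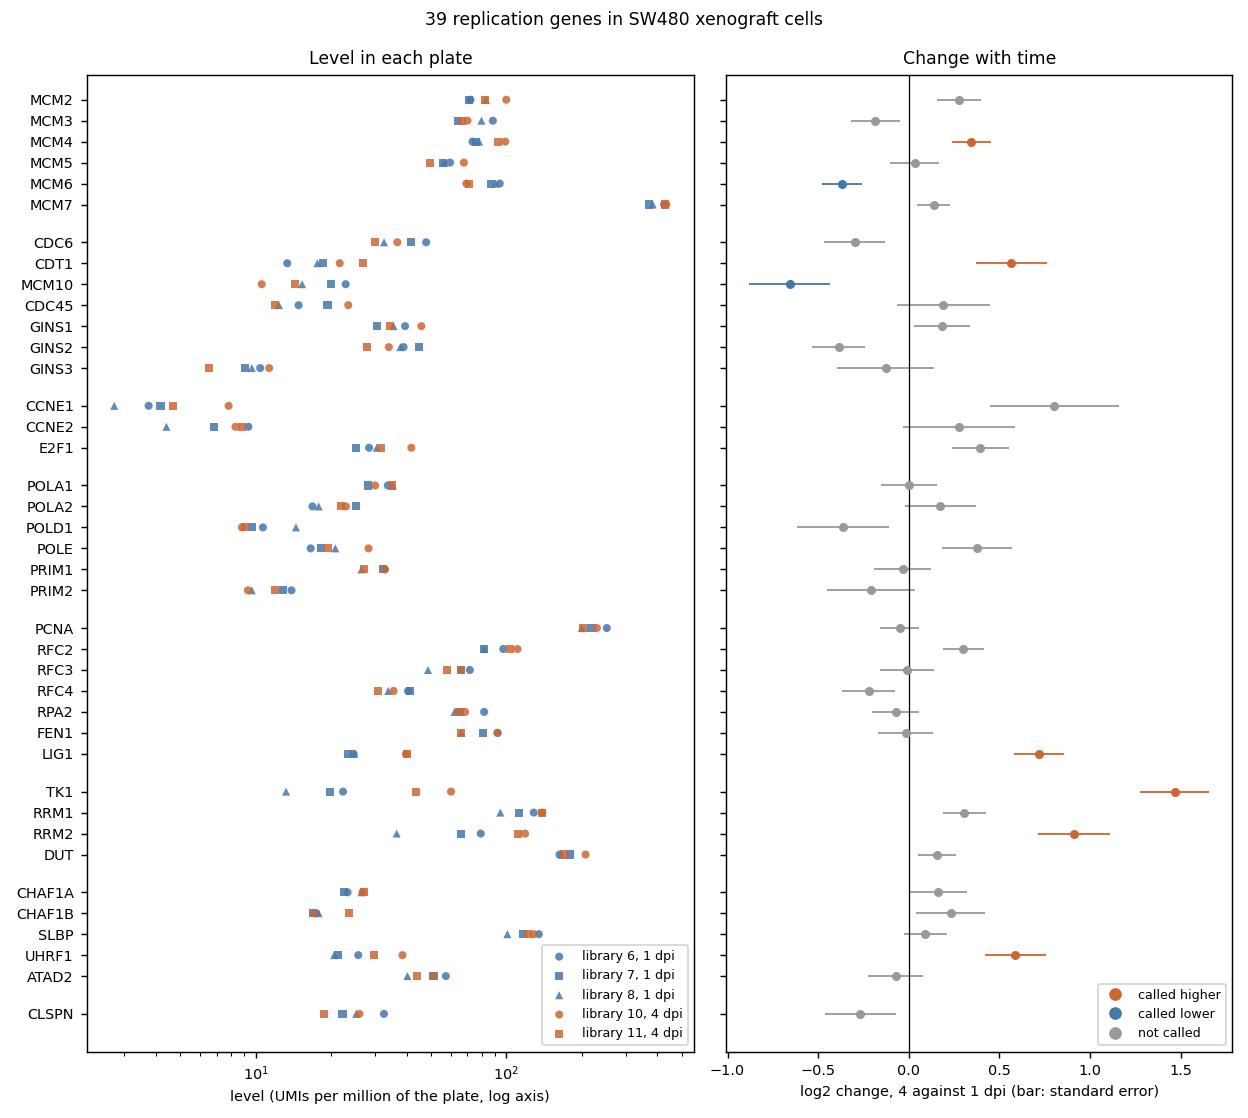
Each row is 1 of the 39 replication genes, grouped by role; the left panel plots its level in CPM in each of the 5 plates on a log axis (blue, 1 dpi; orange, 4 dpi), and the right panel its log2 change with the standard error. TK1 lies farthest to the right at 1.47 and MCM10 farthest to the left at -0.66, and most other bars cross or lie close to 0.

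The largest rises were in nucleotide supply. TK1, cytosolic thymidine kinase (chr17:78174079-78187204), had 22.3, 19.7 and 13.2 CPM at 1 dpi and 60.2 and 43.4 at 4 dpi. Both 4 dpi plates lay well above all 3 plates of 1 dpi. Its log2 change was 1.47 ± 0.19 (SE, n = 3 and 2 plates), which is 2.76-fold, with an adjusted p of 6.2e-05 by edgeR. RRM2, the small subunit of ribonucleotide reductase (chr2:10122568-10211010), had 79.0, 65.9 and 36.5 CPM at 1 dpi and 119 and 111 at 4 dpi. Library 8 stood low among the 1 dpi plates, and the time points did not overlap. The log2 change of RRM2 was 0.91 ± 0.20 (edgeR adjusted p = 0.0033), and by DESeq2 it was also 0.91 with an adjusted p of 0.11. RRM1, the large subunit, had 129, 112 and 94.7 CPM and then 139 and 138, a log2 change of 0.31 ± 0.12 that did not pass (edgeR adjusted p = 0.067). RRM2, DUT, PCNA, FEN1, RFC3, RPA2 and TYMS have 21 annotated processed copies in all, which have no UMIs of their own in the plates, so reads from a copy may have been counted for the gene. DUT, the dUTPase that keeps uracil out of DNA, had a log2 change of 0.15 ± 0.11. As a group the nucleotide genes took 392, 369 and 309 CPM at 1 dpi and 526 and 469 at 4 dpi. No other group with a called member kept its 4 dpi plates apart from those of 1 dpi.

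TYMS, the 5th gene of nucleotide supply, could not be compared at these counts. On chromosome 18 it overlaps ENOSF1 by 10593 bases and TYMSOS by 639 bases in the annotation, and reads of overlapping genes may have been assigned to either. ENOSF1 had between 129 and 265 UMIs per plate and TYMSOS between 17 and 60.

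Of the 6 MCM helicase genes 1 was called higher and 1 lower. MCM4 (chr8:47960941-47978160) had 73.3, 75.7 and 77.9 CPM at 1 dpi and 99.0 and 92.9 at 4 dpi, a log2 change of 0.34 ± 0.11 (edgeR adjusted p = 0.024). MCM6 (chr2:135839626-135876443), another subunit of the same ring, had 94.2, 86.9 and 90.5 at 1 dpi and 69.3 and 71.0 at 4 dpi, a log2 change of -0.37 ± 0.11 (edgeR adjusted p = 0.019). In neither gene did the plates of the time points overlap. The other subunits were not called, with log2 changes of 0.28 for MCM2, -0.18 for MCM3, 0.03 for MCM5 and 0.14 for MCM7. The summed MCM level was 763 ± 49.9 CPM in the 3 earlier plates (mean and SD) and 824 ± 27.5 in the 2 later ones. Both calls were lost without library 6, 10 or 11, with adjusted p between 0.052 and 0.14 (edgeR), while the log2 changes stayed between 0.30 and 0.39 for MCM4 and between -0.39 and -0.34 for MCM6.

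Of the 7 genes of origin licensing and firing, CDT1 was higher and MCM10 lower. CDT1, the licensing factor that is destroyed once S phase begins (chr16:88803789-88809258), had 13.4, 18.6 and 17.6 CPM and then 21.7 and 26.8, a log2 change of 0.57 ± 0.19 (edgeR adjusted p = 0.039). MCM10 (chr10:13161558-13211110) had 22.9, 19.9 and 15.3 and then 10.6 and 14.3, a log2 change of -0.66 ± 0.22 (edgeR adjusted p = 0.038). The 4 dpi plates lay above all 1 dpi plates for CDT1 and below them for MCM10, with library 11 close to library 8 for MCM10. Without libraries 6, 8 or 11 the CDT1 call was lost (log2 change 0.42, 0.62 and 0.40), and without libraries 6, 7 or 10 the MCM10 call was lost (-0.51, -0.64 and -0.45). GINS2 was lower in both 4 dpi plates, at 34.0 and 27.8 against 38.9, 44.8 and 37.8, with a log2 change of -0.39 ± 0.15 that did not pass (edgeR adjusted p = 0.061). CDC6, CDC45, GINS1 and GINS3 overlapped between the time points.

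LIG1, DNA ligase I, which seals the nicks of the lagging strand (chr19:48115445-48170344), was called higher. It had 24.6, 23.3 and 24.8 CPM at 1 dpi and 39.8 and 40.1 at 4 dpi. The plates of a time point were nearly alike, and the log2 change was 0.72 ± 0.14 (edgeR adjusted p = 0.0014). The other 6 genes of the clamp, its loader and the lagging strand were not called. PCNA, the sliding clamp, had 252, 219 and 200 CPM and then 230 and 202, a log2 change of -0.05 with a 95% interval of -0.27 to 0.16. FEN1, the flap nuclease, had a log2 change of -0.02, and RFC2 of the clamp loader one of 0.30 ± 0.11 (edgeR adjusted p = 0.059).

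Among the histone and chromatin genes UHRF1, which brings the maintenance methyltransferase to newly copied DNA (chr19:4903080-4962154), was higher. It had 25.7, 21.3 and 20.6 CPM at 1 dpi and 38.5 and 29.7 at 4 dpi, and the time points did not overlap. The log2 change was 0.59 ± 0.17 (edgeR adjusted p = 0.016). Without library 10 it was 0.39 (adjusted p = 0.20), and without library 8 it was 0.53 (adjusted p = 0.0501). The histone chaperones CHAF1A and CHAF1B, the histone mRNA binding protein SLBP and the chromatin ATPase ATAD2 were not called.

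No member of the polymerases and primase, of cyclin E and E2F, or of the checkpoint was called. The 6 polymerase and primase genes together took 124, 124 and 124 CPM at 1 dpi and 132 and 126 at 4 dpi, and their log2 changes ranged from -0.36 for POLD1 to 0.38 for POLE. CCNE1, a cyclin E, had only 3.75, 4.18 and 2.73 CPM and then 7.81 and 4.68, a log2 change of 0.80 ± 0.35 (edgeR adjusted p = 0.10). E2F1 had 28.4, 25.2 and 30.4 and then 41.8 and 31.7, a log2 change of 0.39 ± 0.16 (edgeR adjusted p = 0.072). CLSPN, the claspin adaptor of the replication checkpoint, had a log2 change of -0.27 ± 0.20.

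Of the 39 genes 12 were higher and 4 were lower in both 4 dpi plates than in all 3 plates of 1 dpi, beside 27.0% and 27.6% of all genes tested. On each flow cell taken alone all 8 called genes had the same direction. This had to be so, because their time points did not overlap, and it adds no support. Among all 39 the direction was shared by the flow cells in 26, which include the 12 and 4 genes without overlap. Scaling the plates to the ERCC spike-in RNA added to each well left 0 of the 39 genes called by edgeR, and 0 at an unadjusted p under 0.05, as it left 3 of all 12646 genes called, and it moved the median log2 change of all genes to -0.20. Spike-in UMIs per cell were 307, 319 and 269 on the flow cell of libraries 6, 7 and 10 and 525 and 476 on that of libraries 8 and 11. All 8 called genes kept their direction under this scaling. With the flow cell as a term it called 4 of the 39 higher and 2 lower, beside 9.50% and 14.4% of all genes.

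Of a list of 48 further replication genes, which were not members, 8 were called higher and 7 lower, a share near the 13.4% and 14.2% of all genes tested, with a median log2 change of 0.09. They ran from ORC1 of the origin recognition complex at -0.73 ± 0.25 (edgeR adjusted p = 0.042) to the repressor E2F8 at 1.25 ± 0.49, which did not pass (adjusted p = 0.063). GMNN, the inhibitor of CDT1, was called lower at -0.47 ± 0.13 (edgeR adjusted p = 0.012). In contrast, 41 of 45 G2 and mitosis genes were called higher and 0 lower by edgeR (42 and 0 at an unadjusted p under 0.05, 39 and 0 by DESeq2), with a median log2 change of 0.98. They ran from CKS2 at -0.05 ± 0.11 to the phosphatase CDC25C at 1.79 ± 0.30. Summed, the G2 and mitosis genes took 2139, 1937 and 1764 CPM at 1 dpi and 3636 and 3659 at 4 dpi, a ratio of 1.87, beside 1.12 for the replication genes.

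The share of cells in which a gene was seen was compared after each cell had been thinned to 5000 UMIs, which kept 815 cells. Of the 38 replication genes seen in at least 5% of the cells of a plate, 10 were seen in more cells in both 4 dpi plates than in any plate of 1 dpi and 2 in fewer, beside 19.9% and 19.5% of the genes measured in the same way. MCM7 was seen in 67.7%, 60.0% and 66.2% of cells at 1 dpi and in 82.3% and 76.7% at 4 dpi. Its UMIs per cell in which it was seen stayed between 2.49 and 2.66 in every plate. TK1 was seen in 7.52%, 6.43% and 6.25% and then in 20% and 13.2%, and LIG1 in 9.29%, 7.86% and 8.12% and then in 14.6% and 18.2%. The exact 95% binomial intervals for LIG1, which cover counting error only, were 5.84% to 13.8% in library 6 and 12.6% to 25.1% in library 11, so single plates overlap at this depth. RRM2 was seen in 15.9%, 20% and 11.9% and then in 21.5% and 24.5%, with 1.58 to 2.22 UMIs per such cell at 1 dpi and 2.54 and 2.41 at 4 dpi. The 2 genes seen in fewer cells were MCM6 (26.1%, 30.7% and 29.4%, then 23.8% and 23.9%) and MCM10 (9.29%, 10.7% and 6.25%, then 3.85% and 4.40%). No cell type that should lack these genes was on the plates, so a background share of free RNA was not measured.

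Summed within each thinned cell, the replication genes had a median of 7 UMIs in all 3 plates of 1 dpi and of 10 and 9 at 4 dpi. The highest cell had 57, 49 and 46 UMIs at 1 dpi and 47 and 42 at 4 dpi. Cells with at least 20 replication UMIs made up 16.8%, 18.6% and 13.1% at 1 dpi and 20% and 18.9% at 4 dpi, and cells with under 10 made up 60.6%, 62.9% and 68.8% and then 46.9% and 52.2%. The time points thus lay further apart in the lower part of the distribution than in its upper part. The variance over the mean of these sums was 9.12, 8.17 and 7.37 at 1 dpi and 6.24 and 6.42 at 4 dpi, lower in both later plates. For the G2 and mitosis genes it was 18.6, 14.04 and 20.3 and then 29.5 and 45.7, higher in both.

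**Figure D2:**
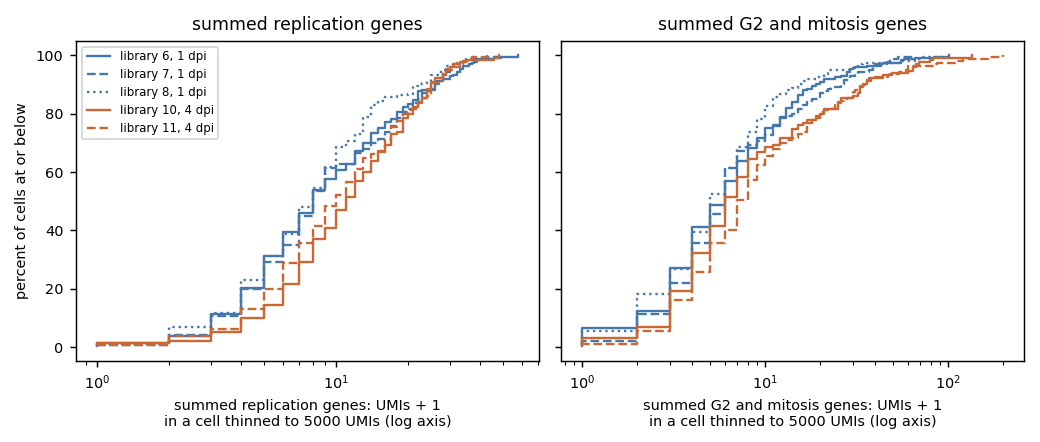
Cumulative percent of cells against the summed UMIs plus 1 of a cell thinned to 5000 UMIs, on a log axis, for the replication genes (left) and the G2 and mitosis genes (right), with a line per plate. At the left the 4 dpi plates lie to the right of the 1 dpi plates up to about the median of 9 and 10 UMIs and join them at the upper end, and at the right they lie apart most clearly at the upper end.

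In UMIs summed over cells, the replication genes differed with the mitochondrial share of the cell, and did so more at 4 dpi. This split was chosen after the limit of 15% on mitochondrial UMIs had been seen to change the calls. Cell by cell the relation was weaker. In thinned cells the log of the summed replication UMIs had a Pearson r with mitochondrial share of -0.003, -0.02 and 0.06 at 1 dpi. At 4 dpi that r was 0.14 in library 10 and 0.36 in library 11. Cells with under 10%, 10% to 15% and 15% to 25% mitochondrial UMIs had 1988, 3000 and 3359 replication CPM in library 10 and 1595, 2378 and 3465 in library 11. At 1 dpi the same classes had 2372, 2608 and 2551 in library 6, 2091, 2277 and 2372 in library 7, and 1886, 2440 and 2250 in library 8. The rise did not go on in wells left out for at least 25%, with over 2000 genes. These had 1901 CPM in library 10 (25 wells) and 2095 in library 11 (30 wells). At 1 dpi libraries 6, 7 and 8 had 1, 3 and 1 such wells, at 1258, 1521 and 5738 CPM. The cells with 15% to 25% numbered 67, 33 and 27 at 1 dpi and 52 and 58 at 4 dpi. They made up 29.4%, 23.2% and 16.6% of cells at 1 dpi and 39.4% and 36.0% at 4 dpi. Their median UMIs per cell were 24813, 31827, 24534, 22069 and 20592 in libraries 6, 7, 8, 10 and 11, below those of the cells under 10% in each library but 11.

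**Figure D3:**
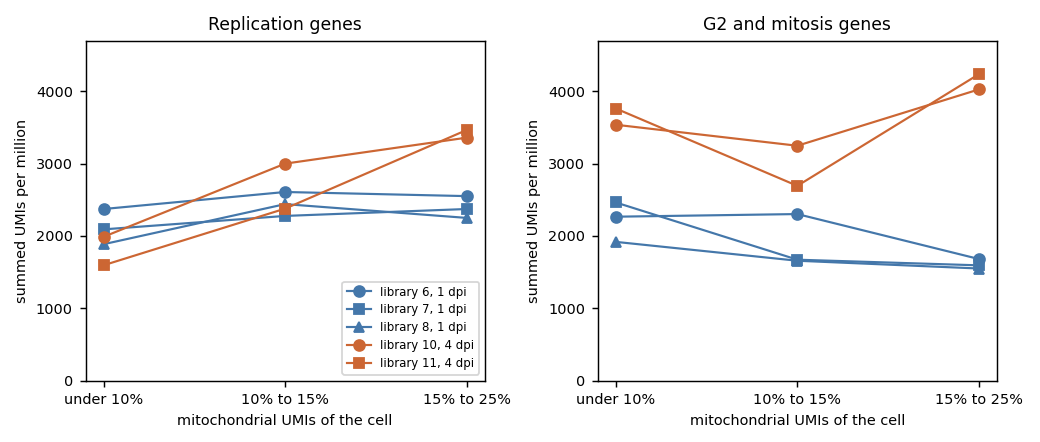
Summed CPM of the replication genes (left) and of the G2 and mitosis genes (right) in cells of 3 classes of mitochondrial share, with a line per plate. The replication genes of libraries 10 and 11 go from 1988 and 1595 to 3359 and 3465, while those of the 1 dpi plates stay between 1886 and 2608.

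Within plates, with the plate as a block, cells of 15% to 25% mitochondrial UMIs were compared with those under 15%. At 4 dpi 32 of 39 replication genes were called higher in the cells of high share and 0 lower by edgeR (35 and 0 at an unadjusted p under 0.05), beside 13.5% and 13.6% of all 11559 genes tested, with a median log2 difference of 1.14. Without library 11 it was 19 of 39. At 1 dpi 5 of 39 were called higher (CCNE2, PCNA, FEN1, RRM2 and DUT) and 0 lower by edgeR (14 and 0 at an unadjusted p under 0.05), beside 4.33% and 2.9%, with a median of 0.34. That number was 3 without library 6 or library 7. It was 13 where the cells were split at 10% in place of 15%, beside 6.93% of all genes. The difference between the time points was called for 17 of 39, all larger at 4 dpi, beside 2.34% of all genes that were larger and 3.96% that were smaller, with a median of 0.72. Without library 11 that number was 2, without library 10 it was 10 and without library 6 it was 9, while the median stayed between 0.64 and 0.94. The comparison lists moved as well. At 4 dpi 28 of the 48 further replication genes were called higher in the cells of high share and 2 lower, and 25 of the 45 G2 and mitosis genes were higher and 0 lower (32 and 0 at an unadjusted p under 0.05), with median log2 differences of 0.76 and 0.65. At 1 dpi 2 of the 48 and 0 of the 45 were called higher by edgeR, and 0 of either list lower. At an unadjusted p under 0.05 by edgeR, 7 of the 48 were higher and 0 lower. Of the 45, 4 were higher and 11 lower, and their median log2 difference was -0.09. The difference between the time points was called larger for 9 of the 48 and 13 of the 45, with medians of 0.62 and 0.68, and whether the members differed from these lists was not tested. For UHRF1 the cells of low and high share had 17.3 and 85.7 CPM in library 10 and 13.0 and 65.4 in library 11. At 1 dpi the pairs were 23.1 and 29.1, 19.2 and 24.5, and 18.2 and 26.9. The log2 difference of UHRF1 was thus 2.32 ± 0.23 at 4 dpi, and exceeded that at 1 dpi by 1.92 ± 0.30 (edgeR adjusted p = 0.00017). LIG1 had 24.4 and 72.3 in library 10 and 22.0 and 78.0 in library 11, against 21.3 and 30.9, 21.3 and 25.6, and 22.9 and 26.9 at 1 dpi. In the cells of low share LIG1 and UHRF1 at 4 dpi thus lay near or below their 1 dpi levels.

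Unlike LIG1 and UHRF1, TK1 and RRM2 were higher at 4 dpi in the cells of low share too. RRM2 had 99.1 and 89.3 CPM in these cells at 4 dpi, against 67.0, 52.2 and 34.6 at 1 dpi. TK1 had 49.6 and 34.2 CPM in cells of low share at 4 dpi and 78.2 and 60.4 in those of high share, against 20.03, 16.4 and 12.01 and then 25.5, 29.8 and 15.6 at 1 dpi. It was higher at 4 dpi in both classes of cells, and its change with mitochondrial share differed between the time points by 0.20 ± 0.30 (edgeR adjusted p = 0.76). For RRM2 that difference was 0.00 ± 0.23, and for SLBP it was -0.19 ± 0.19. They were among several members without a call for this difference, which does not show that there was none.

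The comparison of time points accordingly depended on which cells were kept. In cells under 15% mitochondrial UMIs 2 of 39 replication genes were called higher at 4 dpi, TK1 at 1.34 and RRM2 at 0.85, and 9 lower, beside 10.4% and 10.5% of all genes. The 9 were MCM3, MCM6, MCM10, GINS2, POLD1, PRIM1, PCNA, RFC4 and CLSPN, and the median log2 change was -0.21. CDT1 then stood at -0.091, UHRF1 at -0.43, LIG1 at 0.08 and MCM4 at 0.06, none of them called. In cells of 15% to 25%, a choice made after the values were seen, 14 of 38 were called higher and 0 lower by edgeR (18 and 0 at an unadjusted p under 0.05), beside 9.68% and 10.2% of all genes, with a median of 0.49. These 14 included all 6 genes called higher in all cells, while MCM6 stood at 0.16 and MCM10 at 0.13. In cells under 10%, chosen in the same way, 1 of 38 was called higher and 8 lower, beside 8.75% and 7.54% of all genes. With every cell thinned to 5000 UMIs 4 of 35 were called higher and 0 lower by edgeR (7 and 1 at an unadjusted p under 0.05), beside 6.97% and 6.25% of all genes. The G2 and mitosis genes had 33, 41 and 26 of 45 called higher by edgeR in the 3 sets of cells split by mitochondrial share, and 0 lower, also at an unadjusted p under 0.05. The share of cells with 15% to 25% mitochondrial UMIs was higher in both 4 dpi plates, and its part in the change of each gene with time was not tested.

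Cell by cell, the replication genes varied together. Over the 37 genes seen in at least 10% of cells, the mean within-plate Pearson r of log values had a median of 0.30 over 666 pairs, and all 666 were above 0. The median was 0.34, 0.34 and 0.31 in the plates of 1 dpi and 0.27 and 0.24 in those of 4 dpi, where all pairs of genes gave 0.01 to 0.02. These values are descriptions over cells that share a plate and vary in depth, and in cells thinned to 5000 UMIs the median was 0.10. The closest pair was PCNA with FEN1, at 0.53 (0.39 to 0.64 over the plates), and MCM3 with MCM6 also had 0.53. Both had a log2 change with time below 0, called for MCM6 (-0.37) and not for MCM3 (-0.18). Whether these 2 changes differed was not tested. TK1 and RRM2 had 0.50.

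Members differed in how far they also followed the G2 and mitosis genes. RRM2 had a mean r of 0.56 with the summed G2 and mitosis genes, TK1 0.52, RRM1 0.49 and ATAD2 0.48. At the other end CCNE1 had 0.07, CCNE2 0.12, MCM6 0.13 and CHAF1B 0.13. MCM6 had 0.58 with the other replication genes, so it was close to these and far from the G2 genes, and only TK1 and RRM2 of the 39 had a higher r with the G2 and mitosis genes than with the other replication genes. In cells thinned to 5000 UMIs this held for TK1 (0.32 with the G2 and mitosis genes and 0.27 with the other members) and turned for RRM2 (0.23 and 0.39). Across the 39 genes, which are not independent replicates, the log2 change with time had a Pearson r of 0.15 and a Spearman rho of -0.02 with the r to the G2 and mitosis genes at 1 dpi.

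**Figure D4:**
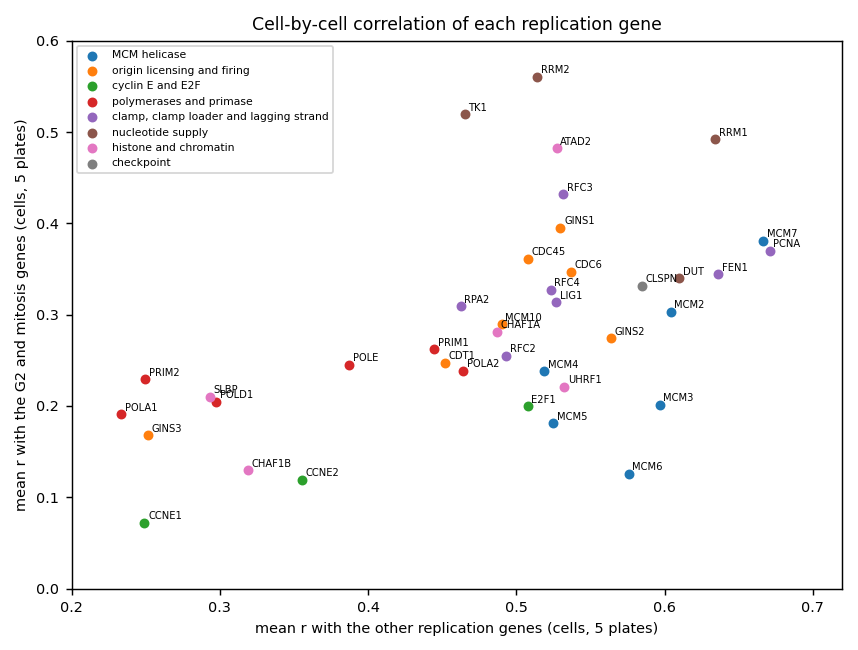
Each point is 1 of the 39 replication genes; the horizontal axis is its mean within-plate r with the summed other members and the vertical axis that with the summed G2 and mitosis genes. RRM2 and TK1 are at the top at 0.56 and 0.52, PCNA and MCM7 are farthest to the right at 0.67, and CCNE1 is at the lower left at 0.25 and 0.07.

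Of 5488 genes compared, those outside the list that varied most like the summed replication genes included DTL (mean r 0.66), KIAA0101, which is an older symbol of PCLAF (0.64), RAD51AP1 (0.63), TUBA1B (0.63), ASF1B (0.62), ZWINT (0.59), DNMT1 (0.58), TUBB (0.56) and UNG (0.53). The median over the genes compared was 0.01. Of these, TUBA1B, ASF1B, ZWINT (log2 change 0.89), TUBB (0.55) and RAD51AP1 (0.54) were called higher at 4 dpi by edgeR, beside 13.4% of all genes tested. DTL, KIAA0101, DNMT1 and UNG were not called. DTL, a part of the ligase that destroys CDT1, had a log2 change of -0.28 ± 0.14 (edgeR adjusted p = 0.15), whereas ASF1B, a histone chaperone, was called higher at 0.79 ± 0.14 and TUBA1B, a tubulin, at 0.89 ± 0.10.

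Because the members vary together, their promoters were searched for words that E2F factors bind. The 250 bases before the RefSeq start (GRCh38.p14) were available for 35 of the 40 genes. For UHRF1, RRM2, CDC45 and PRIM2 the start used lay inside the annotated gene, so the window was partly or wholly within it. The words were TTCCCGC and its form TTCGCGC with another middle base, then TTGCCGC and likewise TTGGCGC, on either strand. With overlaps counted, 1 or more of them was found in 18 of these 35 (51.4%), beside 16.8% of the genes kept by the filter and 11.0% of all 27305 promoters. Of the further replication genes 28.2% held an E2F word, and of the G2 and mitosis genes 16.2%. CCAAT was in 51.4% of the members, 56.4% of the further replication genes and 73.0% of the G2 and mitosis genes, beside 34.8% and 33.0%. TTTGAA, the core of the element found in many G2 and mitosis promoters, was in 1 of 35 members, RRM1, and in 19 of 37 G2 and mitosis genes (51.4%), beside 8.54% and 13.6%. Members had a median GC content of 68.0% in this window and the genes kept 64.8%. The windows of MCM6, CDT1 and MCM10 are shown, since these are called members whose windows hold no annotated exon, and capitals mark the E2F words, read toward the start of the gene.
MCM6 (chr2:135876444-135876693, minus strand): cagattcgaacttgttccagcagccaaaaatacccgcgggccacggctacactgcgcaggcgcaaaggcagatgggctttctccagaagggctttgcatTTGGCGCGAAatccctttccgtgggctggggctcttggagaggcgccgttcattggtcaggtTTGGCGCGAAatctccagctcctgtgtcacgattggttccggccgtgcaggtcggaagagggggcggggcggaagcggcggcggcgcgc
CDT1 (chr16:88803539-88803788, plus strand): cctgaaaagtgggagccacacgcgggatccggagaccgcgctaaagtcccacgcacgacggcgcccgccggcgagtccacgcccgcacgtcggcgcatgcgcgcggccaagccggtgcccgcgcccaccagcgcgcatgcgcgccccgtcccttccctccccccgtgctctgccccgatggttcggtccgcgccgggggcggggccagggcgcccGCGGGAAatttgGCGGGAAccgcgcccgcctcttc
MCM10 (chr10:13161308-13161557, plus strand): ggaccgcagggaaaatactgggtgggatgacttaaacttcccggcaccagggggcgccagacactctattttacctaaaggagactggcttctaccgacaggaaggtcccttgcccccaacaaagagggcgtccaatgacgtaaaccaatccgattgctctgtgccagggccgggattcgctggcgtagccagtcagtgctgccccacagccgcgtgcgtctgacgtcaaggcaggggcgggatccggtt
MCM6, called lower, holds 4 overlapping words at a pair of sites, the nearest 79 bases before the start. CDT1, called higher, holds 2 words on the opposite strand, the nearest 16 bases before the start. MCM10, called lower, holds none of these words and has CCAAT 2 times. Of the called members not shown, TK1 and RRM2 held 0 of these words, LIG1 held 1 and UHRF1 held 2, while MCM4 had no window. Their windows held annotated exon bases, all 250 in LIG1 and RRM2. The words were thus present in members of either direction but not in all, and a match in these letters does not show that a factor was bound.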

How the data were processed

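The authors sequenced 5 SORT-seq plates of sorted SW480 cells, 3 from 1 dpi and 2 from 4 dpi, took well barcodes and UMIs from read 1, and aligned read 2 to the human reference transcriptome with BWA (build hg38 per the submitters' processing notes, with the version of BWA not given in the sources used here). Deposited counts are whole UMI counts per gene and well, without normalization. Each plate was a sample.

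The 40 genes, the comparison lists and the tests were chosen with earlier results of these data known. As the authors state, a gene was kept if seen in at least 10 wells, and a cell if its mitochondrial UMIs were under 25% and its genes more than 2000. Being listed in all plates was a further condition on genes, set here. No doublet caller was run. UMIs of human genes were summed per plate and tested with edgeR 4.0.16 (R 4.3.3) after filterByExpr and TMM, two-sided, with Benjamini-Hochberg adjustment at 0.05. Errors are standard errors of that fit, n is the number of plates, and levels are CPM after TMM for single genes and of all human UMIs for sums. Only 1 end of each molecule is counted, so levels were not divided by gene length. On simulated plates the test recovered 95% of 200 genes changed by 1 on the log2 scale, and the test of a difference between time points recovered 61.5%. Shares of cells used cells thinned to 5000 UMIs. Correlations used log values per 10000 UMIs, averaged over the plates. All 8 called genes are named with their values, other members by counts or where a result turned on them, together with the 10 genes most like the summed members, of which 1 is not reported here, and the extremes of the comparison lists. Promoters came from RefSeq (GRCh38.p14), and exons from GENCODE, which use the build of the labels. Sensitivity was tested with DESeq2 1.42.0, other scalings, cell filters, thinning and leaving out each plate.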

Additional observations from a re-analysis of the deposited data

Results flagged for a closer look

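For 17 replication genes the change with the mitochondrial share of the cell differed between 4 and 1 dpi by the test of that difference (edgeR, plate as a block, adjusted p under 0.05). The log2 differences, each larger at 4 dpi, were 1.92 for UHRF1, 1.84 for POLD1, 1.73 for CDT1, 1.58 for MCM10, 1.42 for PRIM1, 1.34 for CDC45 and 1.32 for LIG1. GINS2 had 1.17, CLSPN 1.10, RFC4 1.09, MCM6 1.02 and E2F1 1.01. The smallest were 0.93 for RRM1, 0.81 for DUT, 0.81 for MCM3, 0.72 for MCM7 and 0.68 for PCNA. Without library 11, 2 of the 39 genes were called, while their median log2 difference was 0.64 in place of 0.72.

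Wells left out of every comparison also held replication UMIs. The 55 wells of 4 dpi with over 2000 genes but at least 25% mitochondrial UMIs had 1509 of them, which is 1993 CPM, and the 5 such wells of 1 dpi had 153. Wells with at most 2000 genes had 758 at 4 dpi (420 wells, 1175 CPM) and 555 at 1 dpi (614 wells, 1499 CPM). Their median human UMIs per well ran from 197 in library 8 to 763 in library 11. Whether such wells held a cell or free RNA was not tested.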

How the results depend on the processing

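Directions of the 8 called genes held in 144 of their 152 values under 19 alternatives, 3 of which were chosen after seeing the data, and 39 of the 144 were no longer called. TK1 and LIG1 were called without each plate in turn and so was RRM2. Against 6 higher and 2 lower, DESeq2 called 3 and 1, beside 7.52% and 9.11% of all genes. Spike-in scaling by edgeR called 0 and 0 (0 of 39 at an unadjusted p under 0.05). Cells under 15% mitochondrial UMIs gave 2 and 9, beside 10.4% and 10.5%. The flow cell as a term gave 7 and 1, beside 13.7% and 14.7%. No mitochondrial limit gave 9 and 1, beside 14.6% and 15.5%. Cells thinned to 5000 UMIs gave 4 and 0 of 35, beside 6.97% and 6.25% of all genes. Cells under 10% gave 1 and 8, beside 8.75% and 7.54%, and those of 15% to 25% gave 14 and 0, beside 9.68% and 10.2%. Without a plate the numbers ran from 4 to 6 and from 0 to 2. The median log2 change of 0.14 was -0.066 with spike-in scaling, -0.21 in cells under 15%, -0.35 under 10%, 0.49 in those of 15% to 25%, and 0.0023 to 0.20 without a plate.

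Signs turned for CDT1 (-0.091) and UHRF1 (-0.43) in cells under 15%. Under 10% they turned for MCM4 (-0.062), CDT1 (-0.52), LIG1 (-0.28), RRM1 (-0.58), DUT (-0.65) and UHRF1 (-0.95), and in those of 15% to 25% for MCM6 (0.16), MCM10 (0.13) and PRIM1 (0.78). Genes called in neither fit changed sign 81 times.

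The other replication genes, 8 higher and 7 lower, were 5 and 3 by DESeq2, 0 and 0 with spike-in scaling (0 at an unadjusted p under 0.05), and 4 and 1 in thinned cells. Their number higher was 1 in cells under 15% and under 10%, and their number lower was 4 with the flow cell as a term and 2 in cells of 15% to 25%. Without a plate they ran from 5 to 8 and from 0 to 6. The G2 and mitosis genes called higher, 41, were 0 with spike-in scaling (2 at an unadjusted p under 0.05), 23 in thinned cells and 26 in cells under 10%.

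Replication UMIs of 2292 and 2559 CPM at 1 and 4 dpi became 2056 and 2419 in thinned cells. In cells under 15% they were 2268 and 2114, so the later value was then the lower. With 10000 UMIs per cell 11 of 39 members were seen in more cells in both 4 dpi plates and 4 in fewer. The shares of all genes measured in this way were 20.9% and 21.7%. The median correlation of 0.30 was 0.10 in thinned cells. The number of genes changing with mitochondrial share was 13 at 1 dpi for a split at 10%, beside 6.93% of all genes called higher. Without a plate it ran from 3 to 5 at 1 dpi, from 19 to 32 at 4 dpi, and from 2 to 18 for the difference. The causes of these shifts were not tested. No paired analysis was possible because the plates of 1 and 4 dpi share no replicate number. Depth limits the rarest members, such as CCNE1, whose standard error was 0.35.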
